A study of Homo sapiens with 12 samples.

Results

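Genes of the distal long arm of chromosome 21 were followed in Rh30 cells in which the fusion transcription factor PAX3-FKHR had been knocked down. Rh30 is a human alveolar rhabdomyosarcoma line, a muscle-like tumor of childhood that carries the fusion of PAX3 with FOXO1 (FKHR). The genes were all those whose probe, as placed by the array files on build NCBI36, lay on chromosome 21 between 39400000 and 45400000, leaving out SUMO3. A gene with several probes was placed and read by its brightest one. The window was selected on measured values, namely the KD1 vs CON and KD1 vs WT ratios of neighbouring genes, so no test of these 2 comparisons is used as evidence. Calls on them are given in the closing section only to show their dependence on the fit. It held 109 of the 30238 genes on the array. Of these, 49 gave a signal above the negative controls on all 12 arrays (in the whole series, 15723 genes), and all values below are for these 49 unless stated otherwise.

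The groups were untransfected parental Rh30 cells grown without puromycin (WT), a Rh30 control clone carrying a non-targeting short hairpin RNA (CON), and 1 Rh30 clone with stable short hairpin RNA against PAX3-FKHR (KD1). Both clones carried the same retroviral vector and were kept in puromycin at 1 μg/mL, and RNA was taken 24 h after plating. Each clone is a single clone, so what is particular to a clone and what follows from its hairpin cannot be told apart. Each of the 2 biological replicates gave 3 extracts, which were hybridized to each other on 2-color arrays as KD1 vs CON, KD1 vs WT and WT vs CON, each with its dye swap. A positive log2 ratio means more signal in the culture named first. One slide held all 4 arrays of WT vs CON, another the KD1 arrays of replicate 1, and the third those of replicate 2, so for KD1 the replicate and the slide cannot be told apart.

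The stretch lies in the distal long arm and stops short of its end. It is a gene-dense region much studied because an extra copy of chromosome 21 raises the dose of its genes in Down syndrome. Its genes have no common function. They include chromatin proteins such as HMGN1, factors for ribosome assembly and splicing, enzymes of glycolysis and vitamin B6 metabolism, the trefoil peptides, the interferon-induced MX proteins and the integrin ITGB2. PAX3-FKHR itself acts on many genes across the genome through a paired-box and a homeobox binding site.

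A PAX3 and a FOXO1 probe were read for the targeted transcript. Where each lies relative to the fusion point was not checked. Either may read the fusion, the unfused gene or both, so their ratios may not measure the knockdown. PAX3 lay at −0.39 and −0.46 (replicates 1 and 2) in KD1 vs CON and at −0.45 and −0.33 in KD1 vs WT. FOXO1 lay at −0.26 and −0.58 and at −0.79 and −0.41. All 6 skeletal muscle markers, MYOD1 and MYOG among them, were well above background in every extract. One extract stood apart on markers of another cell type. EPCAM, an epithelial adhesion molecule, reached a log2 signal of 7.36 in WT replicate 2 and was not well above background in any of the other 5 extracts. The epithelial keratin KRT19 read 8.79 there and between 4.71 and 5.61 elsewhere. The other listed markers did not set that extract apart. Blood CD3E (5.32 to 5.85) and endothelial PECAM1 (9.29 to 10.03) were well above background in all 6 extracts, fibroblast DCN and endothelial CDH5 on some arrays, and blood PTPRC and fibroblast LUM in none. Values of KD1 vs WT and WT vs CON are therefore given by replicate, where those of replicate 1 are free of that extract. The directly measured KD1 vs CON ratios do not use it either.

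KD1 lay below CON for most of the window in both replicates. The median log2 ratio of the 49 genes was −0.41 in replicate 1 and −0.51 in replicate 2, which is 0.752 and 0.705 times the CON signal. Over all 15723 genes the medians were −0.01 and −0.02. In replicate 1, 41 of the 49 genes were below 0 and in replicate 2, 42 (50.9% and 52.2% of all genes). Both replicates were below 0 for 36 of 49 genes, against 37.4% of all genes, and 12 genes were at −0.5 or lower in both, against 5.64% of all genes. Only 2 of the 49 were above 0 in both, the unnamed probe A_24_P170496 and the kinase gene SIK1. As the window was chosen on this comparison, nothing is read from these shares.

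Against WT the replicates differed. The median of KD1 vs WT was −0.07 in replicate 1, with 26 of 49 genes below 0, and −0.62 in replicate 2, with 39 below 0. All genes had medians of 0.05 and −0.02, with 45.9% and 52.0% below 0. Both replicates were below 0 for 22 of the 49 genes (27.5% of all genes). The value of replicate 2 was the lower one for 36 of 49 genes and for 8336 of all 15723 genes. The median difference from replicate 1 was −0.39, where all genes had −0.04. The corresponding difference in KD1 vs CON was −0.19. Without WT replicate 2, the extract with the EPCAM and KRT19 signal, KD1 vs WT is left with the replicate 1 median of −0.07. The part of those epithelial markers in the replicate 2 value was not tested, and in RNA from whole cultures fewer cells with a transcript and less of it per cell cannot be told apart.

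**Figure D1:**
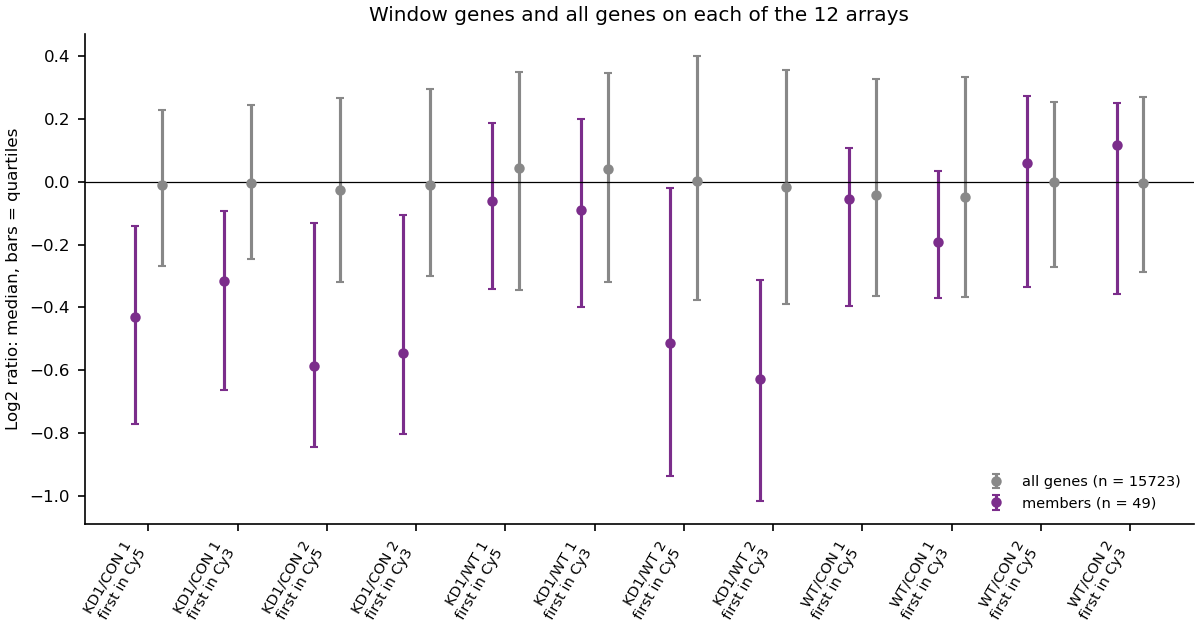
Median log2 ratio of the 49 window genes (purple) and of all 15723 genes (gray) on each of the 12 arrays, with bars from the lower to the upper quartile; each dye-swap pair is shown as 2 arrays, by the dye of the culture named first. All 4 KD1 vs CON arrays have window medians between −0.59 and −0.32, whereas the KD1 vs WT arrays split into −0.09 and −0.06 for replicate 1 and −0.63 and −0.51 for replicate 2.

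The dye swaps gave the same order of medians. On the 4 KD1 vs CON arrays between 39 and 43 of the 49 genes were below 0 (between 7909 and 8232 of all 15723 genes). On the KD1 vs WT arrays of replicate 1 this held for 27 and 28 genes and on those of replicate 2 for 37 and 41. Over all genes these counts were 7309 and 7342, and 7838 and 8064. For single genes the swaps agreed less, with opposite signs for 8 and 6 of the 49 genes in KD1 vs CON (replicates 1 and 2) and for 9 and 10 in KD1 vs WT. The 3 comparisons of a replicate could also be set against each other, since the difference of the 2 KD1 ratios gives a WT vs CON value that does not use the slide of the WT vs CON arrays. For the window genes this value differed from the direct one by a median absolute 0.05 in replicate 1 and 0.06 in replicate 2, as for all genes (0.05 and 0.07). This check bears on WT vs CON alone, and the replicate differences of the KD1 comparisons were measured on the KD1 slides only. WT vs CON, measured directly on one slide, moved by a median of 0.14 from replicate 1 to replicate 2 over the window genes and by 0.04 over all genes.

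Combining the 2 comparisons, 22 of the 49 genes were below 0 in all 4 replicate values (16.0% of all genes) and 17 were below 0 on all 8 KD1 arrays (8.64% of all genes). A further 10 genes were below CON in both replicates and below WT in replicate 2 only, 2 in replicate 1 only and 2 in neither. None of the 49 was above 0 in all 4 values. The mean over the 4 values ran from −1.69 (ITGB2) to 1.01 (SH3BGR) with a median of −0.40. It was under −1 for 5 genes, between −1 and −0.25 for 27, between −0.25 and 0 for 9 and above 0 for 8. In replicate 1 alone, 25 of the 49 were below 0 in both comparisons (28.6% of all genes) and 22 on all 4 arrays (20.7% of all genes), and the mean of its 2 values ran from −1.57 (C2CD2) to 0.45 (A_24_P93184) with a median of −0.22.

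**Figure D2:**
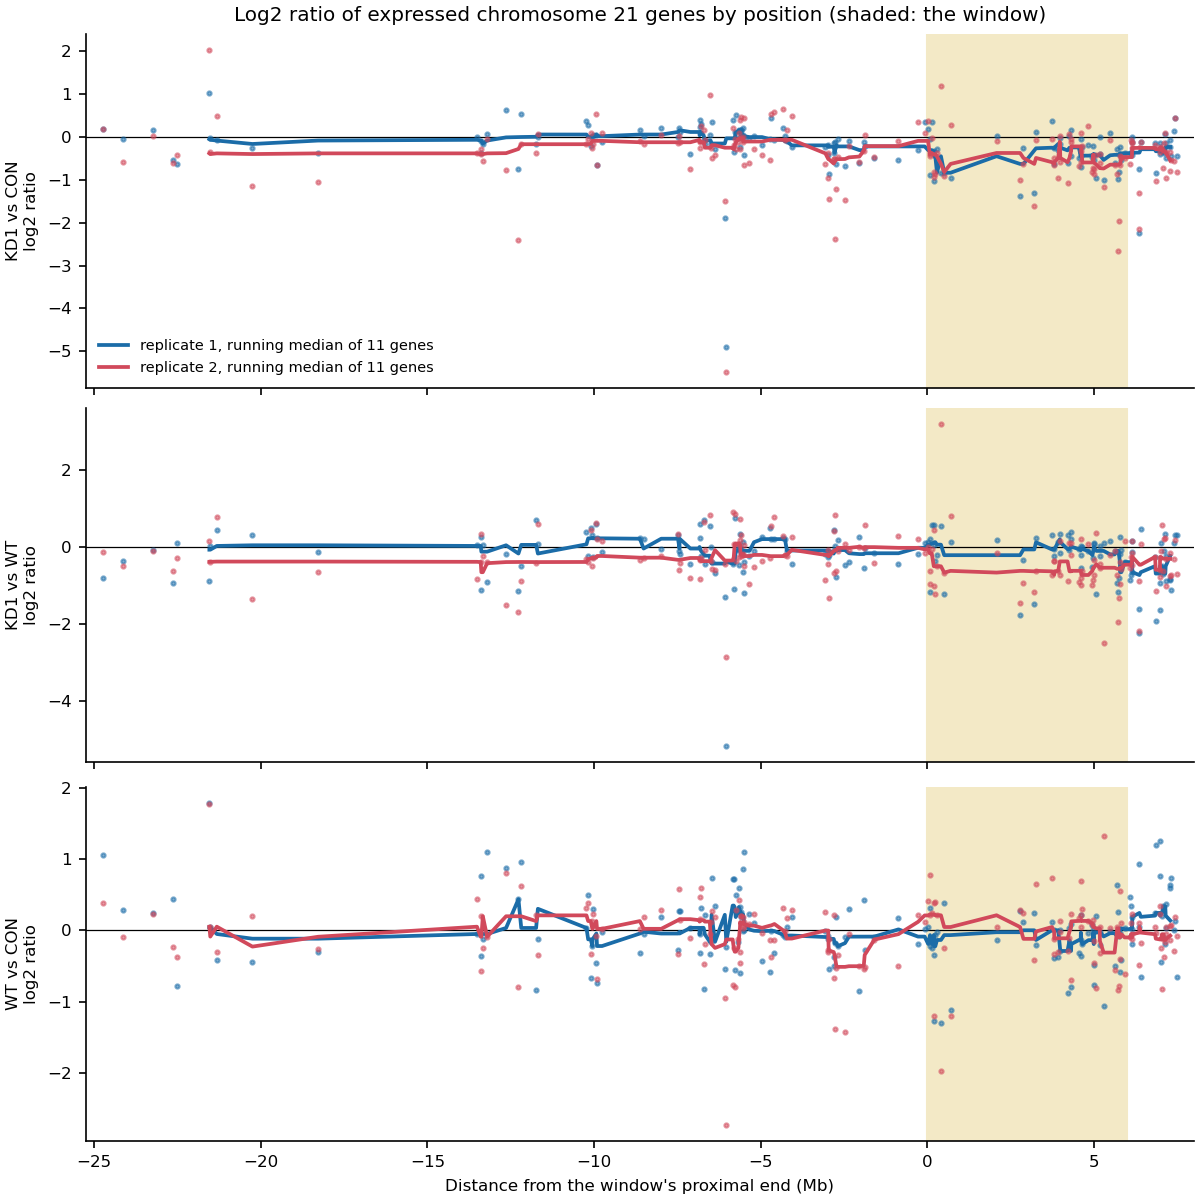
Log2 ratio (y axis) of the expressed chromosome 21 genes against the distance from the proximal end of the window in Mb (x axis), in replicate 1 (blue) and replicate 2 (red), with running medians of 11 genes as lines; the shaded band is the window of 6 Mb. In KD1 vs CON both lines lie below 0 through the band, and in KD1 vs WT the replicate 1 line stays near 0 over most of it while the replicate 2 line lies lower.

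Along the window the lower values were not gathered at one place. In steps of 1 Mb from the proximal end, the medians of KD1 vs CON replicate 1 were −0.46 over 11 genes in the first step, −0.27 over 3 genes in the third, −0.22 over 8 in the fourth, −0.44 over 14 in the fifth and −0.42 over 13 in the last, and the second step held none of the 49 genes. In replicate 2 they ran between −0.64 and −0.41. For KD1 vs WT, replicate 2 medians ran between −0.94 and −0.50, and replicate 1 medians between −0.34 and 0.12. The 24 brighter genes, with a log2 signal above 9.62, had medians of −0.42 and −0.62 against CON, and the 25 others −0.38 and −0.46.

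The edges of the window were not sharp in the values. Just inside the proximal end, PSMG1 lay at −0.05 and −0.41 against CON, BRWD1 at −0.34 and −0.83 and HMGN1 at −0.46 and −0.87. Outside it, the nearest named expressed gene was ETS2, an ETS family transcription factor 283 kb from the edge, with −0.32 and 0.35. The kinase gene DYRK1A, 1591 kb from the edge, had −0.49 and −0.46, and DSCR3, 1882 kb from it, −0.23 and 0.03. Just inside the distal end, C21orf67 had −0.42 and −0.67, C21orf70 −0.54 and −0.48 and C21orf122 −0.38 and −0.51. Just outside it, the RNA-editing enzyme ADARB1 had −0.39 and −0.64, the fucosyltransferase POFUT2 −0.37 and −0.07 and C21orf93 −0.01 and −0.26.

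Beyond the distal end, the remaining 25 expressed genes had medians of −0.34 and −0.35 against CON and of −0.66 and −0.31 against WT, so that there KD1 vs WT was lower in replicate 1. Of these 25, 22 (88.0%) and 23 (92.0%) were below CON. The window had 83.7% and 85.7%, so genes below CON were no less common beyond it. Proximal of the window, 88 expressed chromosome 21 genes had medians of −0.06 and −0.19 against CON and of −0.10 and −0.24 against WT. There 61.4% and 70.5% were below CON. The low values against CON went on past the proximal end, though. The nearest 3 Mb held 17 expressed genes, of which 16 were below CON in replicate 1 and 14 in replicate 2, with medians of −0.32 and −0.48. Against WT their medians were −0.17 and −0.08. Over the nearest 6 Mb, with 42 genes, the medians against CON were −0.11 and −0.21. No test was made between these stretches, because the window was drawn on the same ratios.

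Among the 9 genes listed under chromatin and transcription, which include the kinase genes SIK1 and RIPK4, 5 were expressed on all arrays, and 4 of these 5 were below CON in both replicates. HMGN1, which binds nucleosomes and loosens chromatin, lay at −0.46 and −0.87 in KD1 vs CON and at −0.38 and −1.21 in KD1 vs WT. In WT vs CON it was at −0.07 and 0.40, so KD1 had the lowest HMGN1 signal in both replicates. Its 5 probes gave values between −0.46 and −0.22 for KD1 vs CON replicate 1 and between −0.87 and −0.67 for replicate 2. Against WT they spread from −0.38 to 0.07 in replicate 1 and from −1.21 to −0.99 in replicate 2. ZNF295, a zinc-finger transcriptional repressor now named ZBTB21, was below 0 in all 4 values, between −0.94 and −0.27. BRWD1, a bromodomain protein, had −0.34 and −0.83 against CON and 0.05 and −1.03 against WT. Its other expressed probe gave 0.14 and −0.44 against CON and −0.59 and −0.43 against WT, so in replicate 1 the sign depended on the probe. The homeodomain factor PKNOX1 had −0.32 and −0.95 against CON and 0.12 and −0.64 against WT.

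SIK1, a salt-inducible kinase, depended on the probe. Its brightest probe averaged between −0.09 and 0.09 in all 4 values, but over dye swaps of opposite sign. They read 0.22 and −0.18, and 0.19 and −0.09, against CON, and 0.21 and −0.39, and 1.41 and −1.23, against WT. Its 2 dimmer probes gave −0.86 and −0.79 in KD1 vs CON replicate 1 and −1.07 and −1.01 in replicate 2. Against WT they gave −0.38 and −0.20, and −0.87 and −0.71. Of the 20 window genes with at least 2 expressed probes, 17 had probes of the same sign in the mean of the 4 values, and SIK1, AGPAT3 and WDR4 did not. C21orf88, a non-coding transcript now named B3GALT5-AS1, had the widest spread between probes, with means of −0.91 and −1.88, both below 0.

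All 5 genes for the ribosome, transfer RNA and RNA processing were expressed, and 4 of them lay below CON in both replicates. U2AF1, the small subunit of the splicing factor that reads the 3′ splice site, was one of the brightest window genes and had −0.17 and −0.60 against CON and −0.17 and −0.72 against WT. PWP2, a component of the complex that assembles the small ribosomal subunit, had −0.23 and −0.73, and −0.29 and −0.87. RRP1B, a nucleolar protein, was at −0.49 and −0.68, and at −0.06 and −0.92. Its relative RRP1 was at −0.25 and −0.23, and at 0.00 and −0.62. WDR4, the partner of a transfer RNA methyltransferase, was the exception with 0.36 and −0.06 against CON and 0.30 and −0.73 against WT. In replicate 2 all 5 were below WT, between −0.92 and −0.62, and all 5 had more signal in WT than in CON. In replicate 1, which lacks the extract with the EPCAM signal, 3 of the 5 were below WT, and WT vs CON was −0.31 for RRP1B, −0.19 for RRP1 and between 0.00 and 0.11 for the others.

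Of the 6 metabolic genes, 5 were expressed, and 4 of these lay below CON in both replicates. PDXK, the kinase that makes active vitamin B6, was at −0.70 and −0.60 against CON and at −0.55 and −0.81 against WT. Its next brightest probe gave −0.18 and −0.24 against CON, and its dimmest expressed probe −1.04 and −1.12. NDUFV3, a subunit of respiratory complex I, was at −0.64 and −0.67, and at −0.23 and −0.38. PFKL, the liver-type phosphofructokinase of glycolysis, was at −0.41 and −0.60, and at −0.23 and −0.54. C21orf33, a mitochondrial protein now named GATD3, was at −0.43 and −0.74 against CON but at 0.06 and −0.33 against WT. AGPAT3, an acyltransferase of phospholipid synthesis, had −0.20 and 0.24 with its brightest probe, while its other probes were between −0.45 and −0.28. CBS, cystathionine β-synthase, passed the signal limit on 10 of 12 arrays and was not counted.

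All 6 genes of protein assembly, transport and turnover were expressed, 5 of them below CON in both replicates and 4 also below WT in both. TRAPPC10, a subunit of a vesicle-tethering complex, had −0.48 and −0.82 against CON and −0.53 and −0.98 against WT. PTTG1IP, which binds securin, had −0.28 and −0.87, and −0.93 and −0.74. WRB, now GET1, a receptor for inserting tail-anchored proteins into the endoplasmic reticulum, had −0.29 and −0.38, and −0.22 and −0.50. UBE2G2, a ubiquitin-conjugating enzyme of endoplasmic reticulum quality control, had −0.60 and −0.65 against CON but only −0.11 and −0.10 against WT. PSMG1, a proteasome assembly chaperone, had −0.05 and −0.41, and 0.20 and −0.64. The protease inhibitor CSTB had −0.44 and 0.09, and 0.02 and 0.21.

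**Figure D3:**
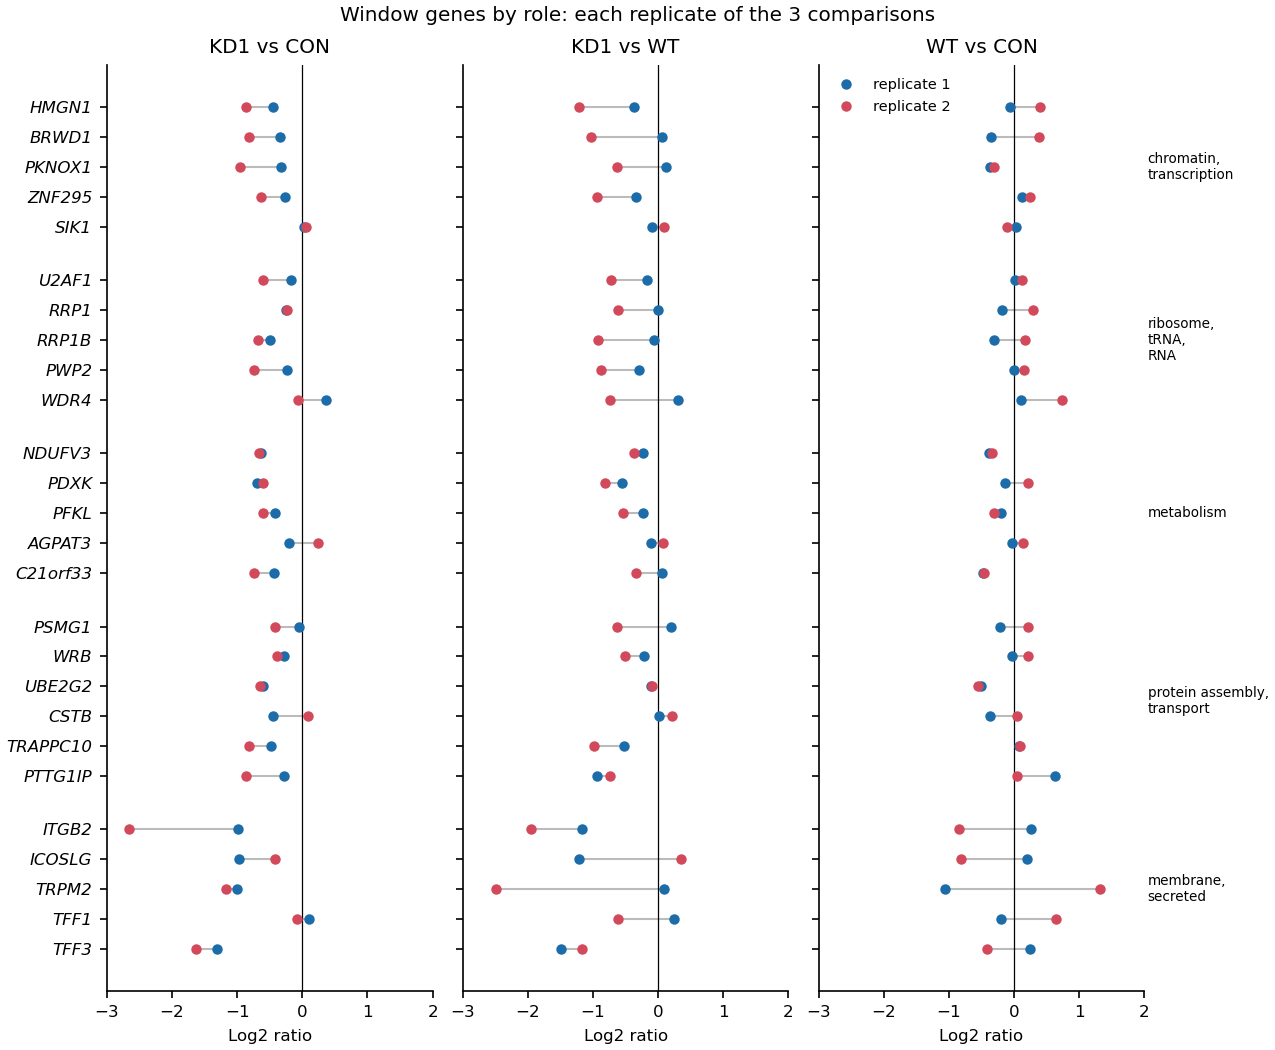
Log2 ratios of the 26 expressed window genes listed by role, in replicate 1 (blue) and replicate 2 (red) of KD1 vs CON, KD1 vs WT and WT vs CON; a gray line joins the replicates of a gene. In KD1 vs CON the points of most genes lie left of 0 in both replicates, and in KD1 vs WT the red points of most genes lie left of the blue ones, with TRPM2 the widest apart (0.10 and −2.49).

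The membrane, adhesion and secreted genes held the lowest mean of the window and some of its least even values. Of 13, 5 were expressed on all arrays. TFF3, a secreted trefoil peptide of mucosal surfaces, was among the brighter window genes and lay at −1.30 and −1.62 against CON and at −1.49 and −1.17 against WT. All 4 of its probes were below 0 in all 4 values, between −2.41 and −0.67. Its neighbour TFF1, of the same family, had 0.10 and −0.07, and 0.24 and −0.62. ITGB2, the β2 chain of leukocyte integrins, had −0.98 and −2.66, and −1.18 and −1.96, which gave that lowest mean of −1.69. ENST00000397854, whose probe lay 15.7 kb from that of ITGB2 and may read the same gene, had −0.83 and −1.96, and −0.82 and −1.33.

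TRPM2, a cation channel opened by oxidative stress, was far from even. Its log2 signal was 9.28 and 9.72 in the WT extracts, 10.39 and 8.40 in CON and 9.36 and 7.21 in KD1. KD1 was therefore below CON by similar amounts in both replicates (−1.005 and −1.17), but against WT at 0.10 and −2.49, and WT vs CON changed sign between replicates (−1.06 and 1.33). Its second probe gave −1.14 and −1.05, 0.22 and −2.40, and −1.16 and 1.46. ICOSLG, a costimulatory ligand, had −0.97 and −0.42 against CON and −1.21 and 0.35 against WT. Its second expressed probe stayed near 0, with −0.02 and −0.19, and 0.11 and −0.10.

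Outside these groups, C2CD2, which holds a lipid-binding C2 domain, was lower in KD1 by similar amounts in both replicates. Its log2 signal was 9.21 and 8.91 in WT, 8.89 and 8.62 in CON and 7.44 and 7.47 in KD1. The ratios were −1.38 and −1.01 against CON and −1.76 and −1.46 against WT. Under normexp background correction and loess, the mean of the replicates was −0.63 in place of −1.19 against CON and −0.99 in place of −1.61 against WT. The same setting brought ENST00000397854 from −1.39 to −0.76 and TRPM2 from −1.09 to −0.71 against CON. C21orf88 had −0.84 and −0.92, and −1.23 and −0.67. At the other end stood SH3BGR, an SH3-domain-binding protein expressed in heart and skeletal muscle, with −0.85 and 1.18 against CON and 0.54 and 3.18 against WT. Its signal was 10.18 and 10.24 in WT, 11.52 and 12.20 in CON, and 10.68 and 13.42 in KD1. The other 3 of the 4 highest means belonged to probes without a gene name, with means between 0.12 and 0.20.

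**Figure D4:**
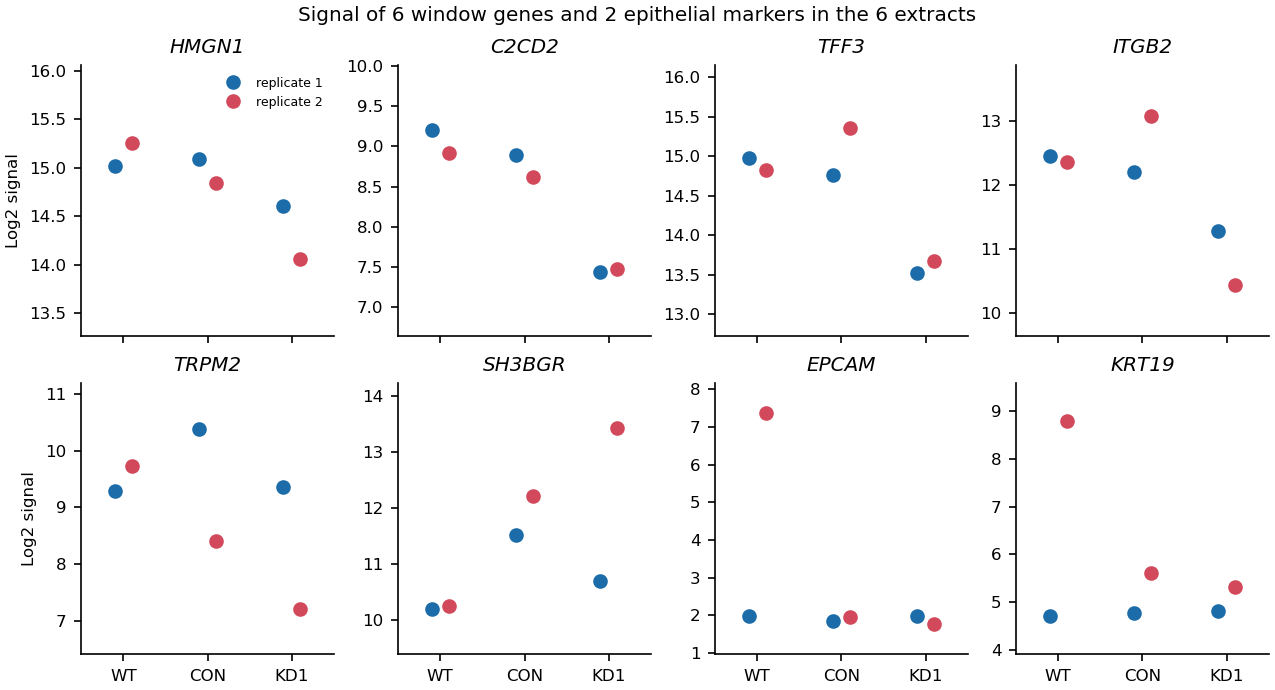
Log2 signal (y axis, mean over the 4 arrays of an extract) of 6 window genes and the epithelial markers EPCAM and KRT19 in the WT, CON and KD1 extracts of replicate 1 (blue) and replicate 2 (red). For HMGN1, C2CD2, TFF3 and ITGB2 both KD1 points lie below all WT and CON points, TRPM2 and SH3BGR change order between replicates, and EPCAM is high in WT replicate 2 alone. As the window was chosen on KD1 ratios, nothing is read from the lower KD1 points.

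Because PAX3-FKHR reads a paired-box and a homeobox site, the promoters of the expressed genes were searched for these letters. RefSeq promoters of GRCh38.p14 (250 bases before to 50 after a start) were found for 29 of the 49. The paired-box letters searched were GTTC or GTTA, each followed by T or by C. The homeobox letters were ATTA. Both strands were searched, and matches of the 2 kinds can overlap. Of the 29 promoters, 17 (58.6%) held a paired-box match, 8 (27.6%) a homeobox match and 5 (17.2%) both. Of all 27305 promoters of this length, 77.0%, 51.0% and 42.6% did. The median GC content was 72.7% in the 29 and 58.3% in all. Below are 3 of them, chosen for their different make-up: C2CD2, with low KD1 values in both replicates, no match and 83.3% GC; HMGN1, read by the most probes, with 2 paired-box matches and 1 homeobox match; and TRPM2, with 0.10 and −2.49 in KD1 vs WT, with 5 and 1. They are written 5′ to 3′ on the gene's strand with matches in capitals.
C2CD2 (chr21:41953969-41954268, minus strand): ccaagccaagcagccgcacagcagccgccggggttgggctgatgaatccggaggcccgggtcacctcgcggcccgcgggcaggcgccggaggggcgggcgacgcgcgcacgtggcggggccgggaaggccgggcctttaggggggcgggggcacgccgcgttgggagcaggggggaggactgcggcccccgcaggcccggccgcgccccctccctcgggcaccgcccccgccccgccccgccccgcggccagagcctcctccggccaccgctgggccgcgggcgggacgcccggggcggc
HMGN1 (chr21:39349039-39349338, minus strand): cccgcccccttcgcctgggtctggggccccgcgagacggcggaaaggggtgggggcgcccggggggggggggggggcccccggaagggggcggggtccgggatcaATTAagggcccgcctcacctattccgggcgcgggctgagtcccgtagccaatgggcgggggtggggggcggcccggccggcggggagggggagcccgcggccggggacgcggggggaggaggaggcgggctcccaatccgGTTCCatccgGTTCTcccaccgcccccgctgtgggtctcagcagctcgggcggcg
TRPM2 (chr21:44353371-44353670, plus strand): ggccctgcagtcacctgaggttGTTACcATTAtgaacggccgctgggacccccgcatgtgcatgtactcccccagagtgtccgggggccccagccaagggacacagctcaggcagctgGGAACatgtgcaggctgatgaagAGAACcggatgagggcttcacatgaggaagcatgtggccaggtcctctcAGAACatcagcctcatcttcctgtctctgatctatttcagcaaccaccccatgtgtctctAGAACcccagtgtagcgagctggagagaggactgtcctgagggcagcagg
In TRPM2 a paired-box and a homeobox match stand 1 base apart. The windows of C21orf70 (SLX9) and C21orf67 (LINC01547), chr21:44939779-44940078 on the plus and chr21:44939864-44940163 on the minus strand, overlap head to head. Their KD1 vs CON values were −0.54 and −0.48, and −0.42 and −0.67. Against WT they were −0.09 and −0.57, and 0.26 and −0.385. The other expressed probe of C21orf67 gave −0.69 and −1.26 against CON. A match describes letters, and these arrays do not measure binding.

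The direct WT vs CON ratios, which did not choose the window, showed no common shift. The median of the 49 genes was −0.09 in replicate 1, with 31 genes below 0, and 0.05 in replicate 2, with 21 below 0. Over all genes, 54.8% and 50.6% were below 0. In both replicates 14 genes were below 0 (33.3% of all genes) and 11 above 0 (27.9%). In limma with the replicate as a block, none of the 49 passed an adjusted p of 0.05, where 0.172% of all genes did. At an unadjusted p under 0.05 there were 7 (17.7% of all genes), 6 of them lower in WT. The fit rests on 2 residual degrees of freedom, with a median SE of 0.20 over the 49 log2 ratios, so missing the threshold does not show that values were alike. Without the KD1 extract of replicate 1 or of replicate 2 it called A_32_P137636, IGSF5 and SH3BGR, among 611 and 789 genes in all, and without that of WT replicate 2 it called A_32_P137636, among 224. The comparison shares its extracts with the KD1 comparisons, and the fitted WT vs CON value is solved in part from the KD1 ratios. Where both KD1 ratios are low by like amounts, WT vs CON lies near 0. A window chosen on those ratios leans that way, so nothing is read from the lack of a shift.

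These 7 were as follows. The unnamed probe A_32_P137636 had a fitted log2 ratio of −1.32 ± 0.16 (SE, n = 2 replicates), with −1.28 and −1.20 in the replicates and a limma adjusted p of 0.0671. It lay at −1.03 and −0.93 in KD1 vs CON and above 0 in KD1 vs WT. IGSF5, a junction adhesion protein, had −1.12 and −1.20 in WT vs CON (limma adjusted p = 0.186), and SH3BGR −1.30 and −1.98 (limma adjusted p = 0.263). The non-coding C21orf84 had −0.79 and −0.70 (limma adjusted p = 0.161). UBE2G2 had −0.50 and −0.56 (limma adjusted p = 0.207) and C21orf33 −0.48 and −0.46 (limma adjusted p = 0.279). Only A_32_P2303, an unnamed probe near PSMG1, had more signal in WT, at 0.31 and 0.77 (limma adjusted p = 0.281).

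The 60 other genes of the window did not give a signal above the limit on all arrays. Of these, 17 were above it on no array and 21 on 9 to 11 arrays, and 25 were not well above background in any extract. Both interferon-induced genes were among them: MX1 passed on 10 arrays and MX2 on 9. MX1 read −0.83 and 0.05 against CON and 0.28 and 1.29 against WT. The cell adhesion gene DSCAM passed on 6 arrays, the secretase BACE2 on 7, the protease TMPRSS2 on 11, the trefoil gene TFF2 on 11, and TMPRSS3 and the phosphodiesterase PDE9A on none. AIRE, PRDM15 and the kinase gene RIPK4 passed on 11 arrays and DNMT3L on 1. BACE2 turned with the replicate, at 0.92 and −2.00 in KD1 vs WT and at −0.47 and 1.99 in WT vs CON, where the second value is from the replicate whose WT extract held the EPCAM signal. It was well above background in 4 of the 8 WT channels and in none of KD1. Without the signal limit, the median of KD1 vs CON over all 109 genes was −0.22 and that of KD1 vs WT −0.06.

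Some of the 49 are not independent readings. The probes of C21orf33 and BQ438133 lay 253 bases apart and gave −0.43 and −0.74, and −0.54 and −0.87, in KD1 vs CON. The probes of NDUFV3 and A_32_P1360 lay 2.78 kb apart and those of PDXK and A_32_P84119 4.30 kb apart. Those of ITGB2 and ENST00000397854 lay 15.7 kb apart, and both are counted among the genes with a mean under −1. Whether they read the same gene was not tested. The 37 expressed genes with a gene symbol had medians of −0.42 and −0.60 in KD1 vs CON and the 12 known only by a probe, transcript or locus name −0.25 and −0.46.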

How the data were processed

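RNA (500 ng per label) of 6 extracts was hybridized to 12 Agilent whole human genome arrays of 2 colors. The authors' scans were quantified in Agilent Feature Extraction 10.5.1.1, and they deposited intensity values, with background subtraction, scaling and lowess within each array, and a log10 ratio per spot. Their deposited series table gives the same ratio on the log2 scale with dye-swapped arrays already turned. Positions are on build NCBI36 per the file headers; current names come from RefSeq (GRCh38.p14) and were found for 71 of the 109 genes.

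Here the log2 ratio of the processed intensities was turned to the culture named first. Repeat spots were combined by their mean, and so was each dye-swap pair. Between 95 and 188 spots per array carried an outlier flag. A flagged spot was left out only where its probe also had an unflagged one. Where every spot of a probe was flagged, its value stayed in the ratios. The signal limit, a background-subtracted value over that of 99% of negative control spots in 1 channel or both, had to be met on all 12 arrays. Between 64.4% and 73.6% of spots per array and channel were well above background. Precision is limited by the 2 biological replicates, as the 12 arrays read the same 6 extracts. For tests, least squares over the 3 ratios of a replicate gave 6 extract values, fitted with limma 3.58.1 (lmFit, eBayes) in R 4.3.3 with culture and the replicate as a block, since extracts met only within a replicate. Benjamini-Hochberg adjustment ran over 15723 genes with a threshold of 0.05. The fit was also run on simulated data, where it missed most of the genes given a known change. Nothing states whether the replicates were separate cultures beyond their being biological replicates.

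The members, gene lists and tests were chosen with earlier results of these data known. Named genes were those of 6 lists by role, the 6 lowest and 4 highest by the mean of the 4 KD1 values, genes near WT vs CON calls, genes whose probes differ and the 3 named genes on each side of each edge; genes not passing, BACE2 among them, were named after their values were seen. No per-sample column was left unmatched (0). Alternatives are given in the closing section.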

Additional observations from a re-analysis of the deposited data

How the results depend on the processing

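The median over the window genes kept its sign under every alternative run for KD1 vs CON and KD1 vs WT. For KD1 vs CON it was −0.48 over the mean of both replicates, with −0.51 to −0.41 when one replicate was left out, −0.36 under normexp and loess, −0.22 with no signal limit, −0.38 over the genes well above background in both channels of each KD1 vs CON array, and −0.41 from arrays with KD1 in Cy3. For KD1 vs WT it was −0.31, with −0.62 to −0.07 when one replicate was left out and −0.06 with no signal limit. The WT vs CON median of −0.005 lay near 0 and turned positive without replicate 1 (0.047, against −0.086 without replicate 2) and under normexp and loess (0.0071).

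In WT vs CON, no window gene was called with the replicate block on all 6 extracts, and by no separate-channel fit, with or without the block. The 6 replicate ratios with a coefficient per comparison called 1 (A_32_P137636) of 126 genes in all. Leaving out one extract in turn, added after the data were seen, called 0 to 3 there, where the lone extract of a culture is taken to vary like the others. In the KD1 comparisons, which chose the window, calls are no evidence and are given only to show their dependence on the fit, as window genes of all genes called for KD1 vs CON and KD1 vs WT. They were 0 of 109 and 0 of 35 with the replicate block on all extracts, 1 of 156 and 1 of 70 from separate channels without the block (0 of 110 and 0 of 43 with it), 3 of 273 and 1 of 100 from the 6 ratios, 5 of 789 and 2 of 240 without WT replicate 2, and 5 of 552 and 1 of 37 without WT replicate 1. Over every extract left out they ran from 0 to 5 and from 0 to 4, while all genes ran from 59 to 789 and from 37 to 470. Under normexp and loess 0, 0 and 1 of all genes were called in the 3 comparisons.

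Counts of window genes below 0 in both replicates were 36 (KD1 vs CON) and 22 (KD1 vs WT), and 55 and 36 of 109 with no signal limit, chosen after seeing the data. For 33 named genes, 5 settings acted on the gene's own ratio (normexp and loess, median centring, all probes, and either dye alone). Of their 495 values, 72 moved by more than the SD of the 2 replicates. Among values of 0.5 or more in size, 10 moved by over 1.5 times. Besides those of C2CD2, ENST00000397854 and TRPM2 under normexp, these were BRWD1 (−0.37 for −0.58), ICOSLG (−0.40 for −0.70) and C21orf88 (−1.35 for −0.88, and −1.45 for −0.95 against WT) over all probes, and with KD1 in Cy3 alone ICOSLG (−0.44) and ENST00000397854 (−0.68 for −1.08 against WT).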
